A study of Homo sapiens with 3 samples.

Results

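Aminoacyl-tRNA synthetases are the enzymes that join each amino acid to its transfer RNA, so that ribosomes can read the genetic code. The genes were chosen by symbol, as a capital letter followed by ARS1 or ARS2, or as EPRS1, FARSA, FARSB, PSTK or SEPSECS. The RefSeq gene table holds 39 such genes, and 19 of them had a probe set named in the array's annotation, out of 14884 genes named in all. These 19 were 17 cytosolic enzymes and the 2 enzymes of selenocysteine synthesis, PSTK and SEPSECS, which are counted with the synthetases below. AARS1, which charges alanine and served as the marker of the set, was among them.

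The levels came from 3 Affymetrix whole-transcript arrays of A549, a widely used line from a human lung cancer. Cells received an siRNA against TAZ (siTAZ), an siRNA against YAP (siYAP) or a control siRNA (siNC) with the reagent Lipofectamine RNAiMAX, and total RNA was taken 48 h later from all of them. TAZ and YAP, encoded by WWTR1 and YAP1, are related co-activators at the end of the Hippo pathway, and the series asked which genes depend on them. Each group had 1 array, so the values have no error and no difference could be set against a spread between cultures.

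In human cells a cytosolic set of synthetases serves the main ribosomes, and a second set, also encoded in the nucleus, serves the mitochondrial ribosomes. Several cytosolic enzymes sit in a multisynthetase complex held together by scaffold proteins such as AIMP1. Many cytosolic synthetase genes are known targets of ATF4, the transcription factor of the amino acid response. Its site, often called the amino acid response element, joins the binding letters of an ATF and a C/EBP factor.

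The planned comparison of cytosolic with mitochondrial enzymes could not be made. RefSeq lists 17 mitochondrial genes under the rule, from AARS2 to YARS2, and 0 of them had a named probe set, so they were not analysed here. GARS1 and KARS1, which charge glycine and lysine, each give rise to both the cytosolic and the mitochondrial enzyme, and are counted with the cytosolic set.

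Values are levels on the log2 scale made with RMA (robust multi-array average), and a difference is 1 array's value minus another's. The medians over all probe sets were 4.26 (siTAZ), 4.27 (siYAP) and 4.28 (siNC). All 19 genes passed the filter on dim probe sets (a mean level of at least 4.27), which kept 10768 genes. YAP1 was at 6.87 in the siYAP array, against 8.45 in the siNC array, and WWTR1 at 5.81 in the siTAZ array, against 6.50 in the siNC array. YAP1 was also lower in the siTAZ array, at 8.24, a difference of -0.21. YAP1 has 2 probe sets, and only the brighter is given here. WWTR1 was at 6.50 in the siYAP array, identical to siNC. The epithelial markers KRT8, KRT18, KRT19 and EPCAM had summed linear levels of 3117 in siTAZ, 3483 in siYAP and 3498 in siNC cells, and the other 4 of the 8 listed markers had no named probe set. In siTAZ cells KRT18 and EPCAM differed from the control by -0.18 and -0.10. Summed levels of the 2 measured leukocyte markers (of 4 listed, with PTPRC and CD3E not named) were 535 in siTAZ, 541 in siYAP and 368 in siNC cells, almost all of it CD68, since CD14 was at 4.49, 4.55 and 4.49 on the log2 scale. Those of the 2 measured fibroblast markers (of 4) were 287, 280 and 180 in the same order, nearly all of it LUM (log2 differences of 0.69 and 0.66), with DCN at 2.38 in all 3 arrays, below the filter. The 2 endothelial markers (of 3) summed to 36.4, 35.4 and 33.5. VWF was at 4.42 in all 3 arrays, so the change was in PECAM1 alone, at 3.90, 3.80 and 3.60, below the filter. The part of these cell type markers in the differences below was not tested. In such bulk RNA, fewer cells with a transcript and less of it per cell cannot be told apart.

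Many values in the table are exactly the same in more than 1 array. Of the kept genes, 41.1% had identical values in all 3 arrays, as had 6 of the 19 synthetase genes. RMA ends with a median polish, in which each probe's middle array has a residual of 0. With 3 arrays an array's effect can therefore come out as exactly 0, and an identical value is no measurement that a gene held steady.

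The promoters show what these genes share in sequence. RefSeq start windows of build GRCh38.p14, 250 bases before to 50 bases after each start, were given for 15 of the 19 genes, and were searched on both strands. The letters TGATGNAA, the core of the amino acid response element, were found in 7 of the 15 genes, or 46.7%. They were found in 4.46% of all 27305 genes with a window. The TEAD core GGAATG, through which YAP and TAZ act, was in the windows of 2 of the 15 (CARS1 and PSTK), against 16.7% of all genes. The E-box CACGTG was in 1, IARS1, against 8.77%. No match of a motif overlapped a match of another in these genes, and a match is a description of the sequence, not a bound site. The 7 matches are shown because few windows of other genes hold these letters. Capitals mark the matched letters, which read as TTNCATCA where the match is on the opposite strand, and each stretch runs 5′ to 3′ on the gene's strand.
AARS1, chr16:70289678-70289701, minus strand: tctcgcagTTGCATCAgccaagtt
CARS1, chr11:3057410-3057433, minus strand: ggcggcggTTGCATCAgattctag
GARS1, chr7:30594837-30594860, plus strand: cgcggcgaTTTCATCAtgctccga
IARS1, chr9:92293695-92293718, minus strand: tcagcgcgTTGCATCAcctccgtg
MARS1, chr12:57488056-57488079, plus strand: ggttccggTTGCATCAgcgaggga
NARS1, chr18:57621807-57621830, minus strand: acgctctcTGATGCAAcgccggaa
TARS1, chr5:33440959-33440982, plus strand: cctttcgaTTGCATCAgctggtcc

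Counted from 1 at the first base of the transcript, with negative numbers before it, the match lay at -187 to -180 in AARS1 and at -33 to -26 in GARS1. It lay at -13 to -6 in IARS1, across the start in CARS1 (-2 to 6) and MARS1 (-4 to 4), and just inside the transcript in TARS1 (3 to 10) and NARS1 (15 to 22). AARS1 is the gene with the match farthest from its start, and its bases before the start are shown in full, with the match in capitals.
AARS1, chr16:70289507-70289756, minus strand: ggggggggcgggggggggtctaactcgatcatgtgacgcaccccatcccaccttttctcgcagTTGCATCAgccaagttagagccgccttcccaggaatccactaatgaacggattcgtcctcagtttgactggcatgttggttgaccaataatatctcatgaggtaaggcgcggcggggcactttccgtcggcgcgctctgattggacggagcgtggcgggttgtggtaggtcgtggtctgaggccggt

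TAZ knockdown was set against the control first. In the siTAZ array 13 of the 19 synthetase genes were above the siNC array, 0 were below it and 6 were identical. Among all kept genes 29.7% were higher, 21.7% lower and 48.5% identical in that comparison. These counts turn on exact ties and on very small differences. After a new quantile normalization 14 synthetases were higher and 5 lower, against 51.5% and 41.7% of kept genes. The lower ones included MARS1, which was no tie, at 0.011 as reported and -0.0014 after this step. After a loess trend was subtracted 13 were higher and 6 lower, against 46.2% and 53.8%. The 6 lower genes after the loess step were the 6 exact ties. They took the sign of the subtracted trend, at -0.0026 in RARS1 and closer to no difference in the others. The differences were small: the median was 0.018 over the synthetases and 0 over all kept genes. Over the 17 cytosolic enzymes alone it was 0.030, with 13 higher and 4 identical, and both selenocysteine enzymes were identical.

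The synthetases leaned in 1 direction but by small steps. None of them reached 1.5-fold in either direction, a size reached by 0.762% (higher) and 1.02% (lower) of the kept genes. At 1.2-fold, 1 of 19 was higher, against 5.62% of the kept genes, and 0 were lower, against 4.89%. The count at 1.2-fold is thus near its background. Past a log2 difference of 0.05, a size chosen after the values were seen, 8 of 19 were higher, against 22.2%, and 0 lower, against 16.1%. With the filter raised to the 75th percentile, which leaves brighter genes, 8 of 18 were higher, against 30.2%, and 0 lower, against 18.5%.

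**Figure D1:**
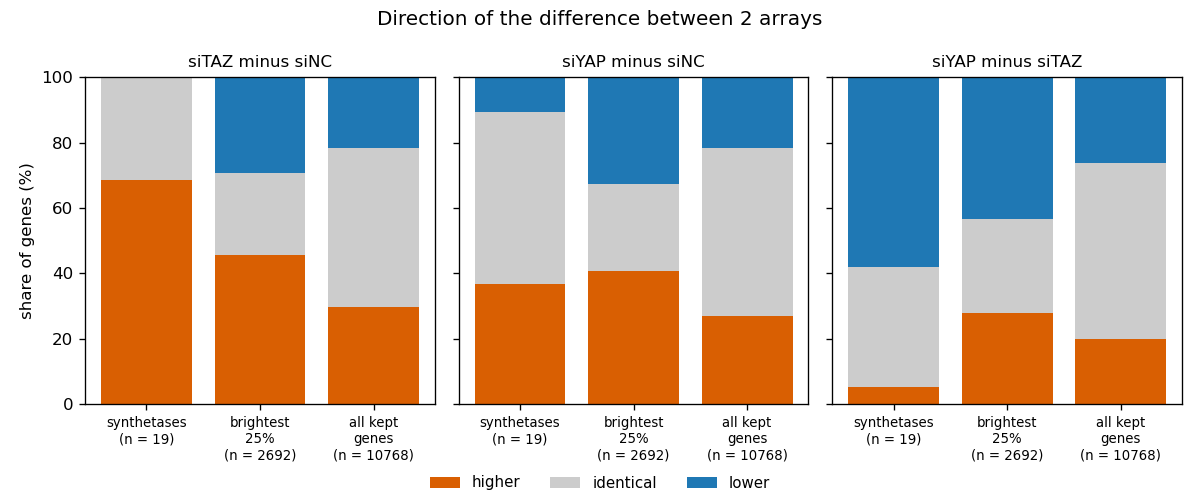
Stacked bars give the share of genes (%, from 0 to 100) that were higher, identical or lower in each of 3 comparisons, for the 19 synthetase genes, the brightest 25% of kept genes (2692) and all 10768 kept genes. In siTAZ minus siNC the synthetase bar has 13 genes higher and 0 lower; in siYAP minus siTAZ it has 1 higher and 11 lower.

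Exact ties were fewer among bright genes. Among kept genes split into 4 equal groups by mean level, the dimmest 25% had 13.8% higher, 17.3% lower and 69.0% identical in siTAZ against siNC cells. The brightest 25% had 45.6% higher, 29.4% lower and the rest identical. The brightest 25% held 12 of the 19 synthetases, of which 9 were higher, 0 lower and 3 identical. The part of brightness in the direction of the synthetases was not tested.

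YARS1, which charges tyrosine, had the largest difference. Its level was 7.52 in siTAZ and 7.22 in siYAP cells, against 7.10 in siNC cells. The siTAZ value stood apart from the other arrays, 1.34-fold (0.42 on the log2 scale) above the control, and 212 of the 10768 kept genes had a higher difference. The siYAP difference was 0.11.

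QARS1, the glutamine enzyme, was at 8.79 in siTAZ and 8.70 in siYAP cells, against 8.55 in siNC cells. It was therefore higher in both knockdown arrays, by 0.24 and 0.15. SARS1, the serine enzyme, which also charges the selenocysteine transfer RNA, was at 7.49 in both the siTAZ and the siYAP array, against 7.27 in the siNC array. Its difference of 0.22 was the same in both comparisons because the siTAZ and siYAP values were identical. AARS1 was at 10.53 in siTAZ and 10.50 in siYAP cells, against 10.31 in siNC cells, differences of 0.22 and 0.19. Both differences of each gene share the single siNC array as reference.

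**Figure D2:**
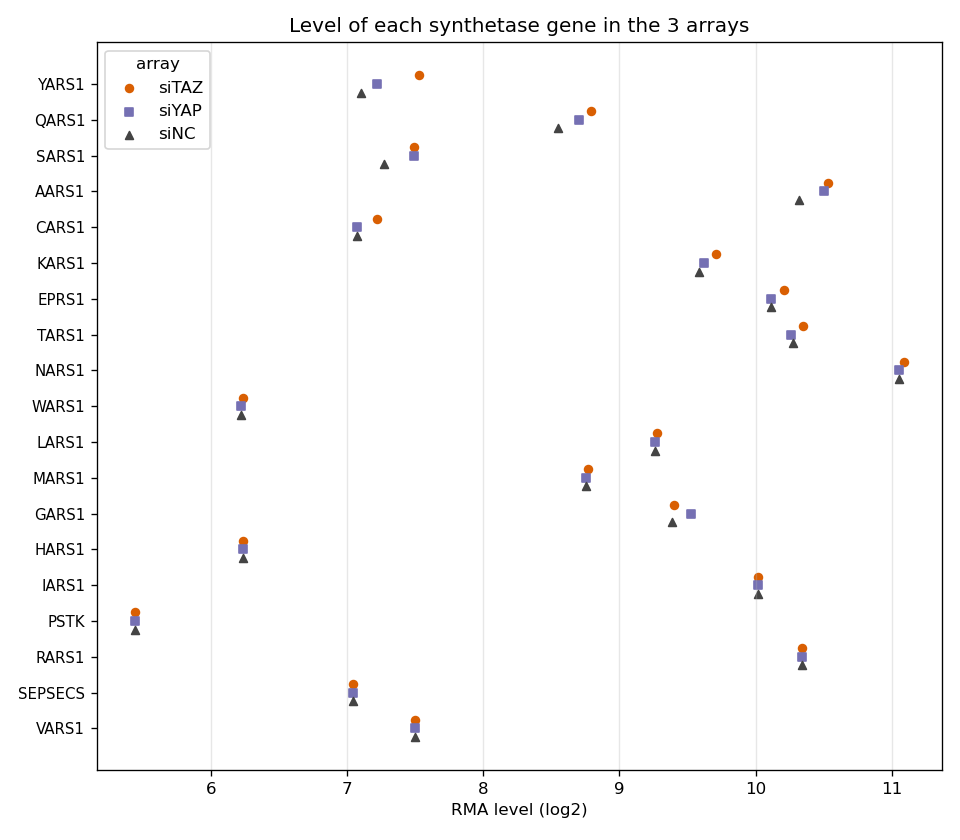
Points give the log2 RMA level of each of the 19 genes (rows) in the siTAZ, siYAP and siNC array, ordered by the siTAZ difference with the highest on top. The symbols of a gene lie close together, and for YARS1 the siTAZ point at 7.52 lies to the right of 7.22 (siYAP) and 7.10 (siNC); levels of different genes come from different probes and are not to be ranked.

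Other enzymes stood higher in the siTAZ array but near the control in the siYAP array. CARS1, the cysteine enzyme, was at 7.22 in siTAZ and 7.07 in siYAP cells, against 7.07 in siNC cells, differences of 0.15 and 0.0047. KARS1 was at 9.71 in siTAZ and 9.62 in siYAP cells, against 9.58 in siNC cells, differences of 0.13 and 0.036. EPRS1, a single protein that charges both glutamate and proline, was at 10.21 in siTAZ and 10.11 in siYAP cells, against 10.12 in siNC cells. Its differences of 0.094 and -0.0052 had opposite signs. So had those of TARS1, the threonine enzyme, which was at 10.35 in siTAZ and 10.26 in siYAP cells, against 10.28 in siNC cells (0.074 and -0.017).

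GARS1 had the reverse order. It was at 9.40 in siTAZ and 9.52 in siYAP cells, against 9.39 in siNC cells, differences of 0.010 and 0.13. GARS1 was the only one of the 19 genes with a higher value in the siYAP than in the siTAZ array (0.12). GARS1-DT, the divergent transcript from the same promoter region, named here after its value was seen, was at 4.69 in siTAZ, 4.67 in siYAP and 4.67 in siNC cells.

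A further group differed from the control by very little and in the siTAZ array alone. NARS1, for asparagine, differed by 0.030, WARS1, for tryptophan, by 0.018, and LARS1 and MARS1, for leucine and methionine, by 0.011 each. For these 4 genes the siYAP and siNC values were identical. Whether differences this small exceed the error of an array cannot be said without replicates.

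The 6 genes with identical values in all 3 arrays were HARS1, IARS1, RARS1, VARS1, PSTK and SEPSECS. HARS1, IARS1, RARS1 and VARS1 charge histidine, isoleucine, arginine and valine. PSTK, a kinase, and SEPSECS, a synthase, turn serine on its transfer RNA into selenocysteine, and stood at 5.45 and 7.04. VARS1 and WARS1 were the members with more than 1 probe set. The dimmer VARS1 probe set was at 6.32 in all 3 arrays, as flat as the brighter one, and the dimmer WARS1 probe set was at 4.88 in all 3.

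YAP knockdown was set against the same control array. In the siYAP array 7 of 19 synthetases were higher, 2 lower and 10 identical, against 27% higher, 21.7% lower and 51.3% identical among all kept genes. The median was 0 for both. The balance turned to 8 higher and 11 lower after the new quantile normalization, against 45.3% and 47.8% of kept genes, and to 9 and 10 after the loess trend was subtracted, against 45.8% and 54.2%. CARS1, which was no tie, turned from 0.0047 to -0.016 with the new quantile normalization. In the loess counts the exact ties carry only the sign of the subtracted trend, as HARS1 at -2.8e-05. As reported, the 7 higher genes were AARS1, CARS1, GARS1, KARS1, QARS1, SARS1 and YARS1, and the 2 lower ones EPRS1 and TARS1. SARS1 had the highest difference, with 586 kept genes above it. Past 0.05, 5 of 19 were higher, against 19.2% of kept genes, and 0 lower, against 14.8%. In the brightest 25% of genes 40.6% were higher by any amount, 32.7% lower and 26.7% identical. Of the 12 synthetases there, 4 were higher, 2 lower and 6 identical. With the filter at the 75th percentile 25.5% of genes were higher past 0.05 and 17.1% lower. At 1.2-fold 0 were higher, against 4.05% of kept genes, and 0 lower, against 3.15%. At 1.5-fold these shares of the kept genes were 0.52% and 0.381%, again with 0 synthetases.

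**Figure D3:**
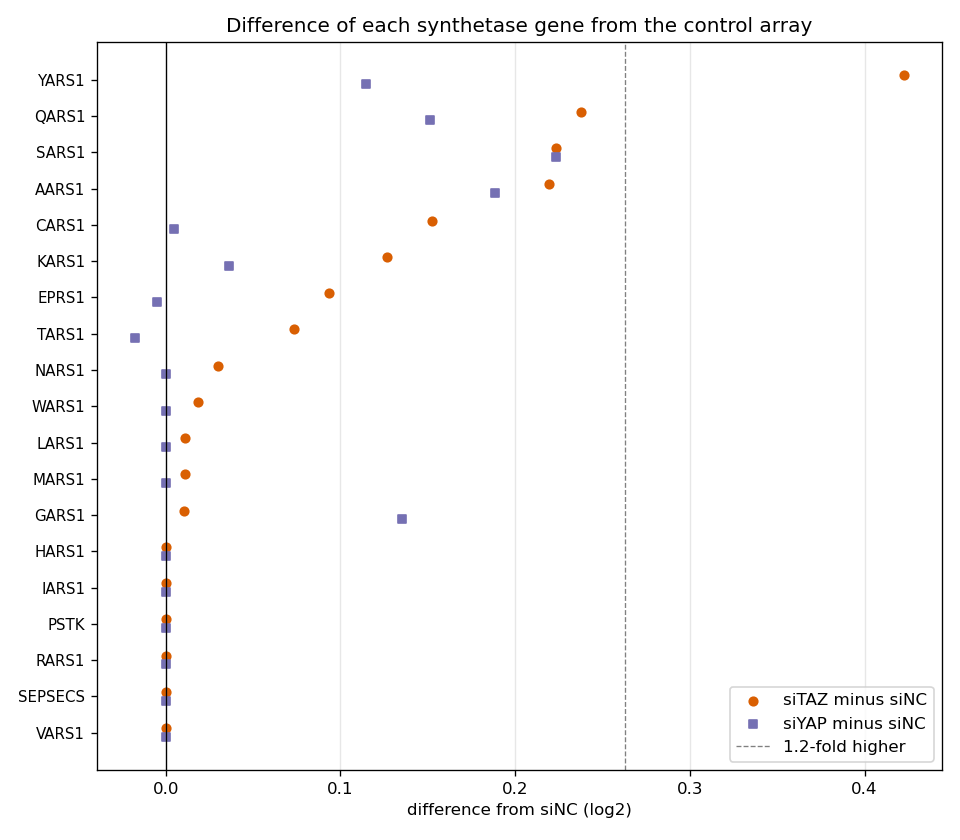
Each row is a synthetase gene, with circles for siTAZ minus siNC and squares for siYAP minus siNC on the log2 scale; the dashed line marks 1.2-fold. No circle lies left of 0, the YARS1 circle at 0.42 is the only point right of the dashed line, and the lowest squares are TARS1 at -0.017 and EPRS1 at -0.0052.

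The knockdown arrays were then compared with each other, without the siNC value. The siTAZ and siYAP arrays are the same as above, so this is no independent check. For NARS1, WARS1, LARS1 and MARS1 it repeats the siTAZ difference from the control with its sign turned. In siYAP minus siTAZ 11 of 19 synthetases were lower, 1 was higher and 7 were identical, against 26.2% lower, 19.9% higher and 53.9% identical among all kept genes. With ties broken by the new quantile normalization 13 were lower, against 61.7% of kept genes, and with the loess trend subtracted 16, against 67.2%. The genes that the loess step added were exact ties with the sign of the trend, such as SARS1 at -2.9e-07 and HARS1 at -4.7e-09. They are not differences between the arrays. The synthetase median was -0.011 and that of all kept genes 0. YARS1 had the lowest difference at -0.31 and was the 1 synthetase at least 1.2-fold lower, against 2.15% of kept genes. None was at least 1.2-fold higher, against 3.19%. At 1.5-fold 0 were higher, against 0.566%, and 0 lower, against 0.176%, and at 2-fold 0 were higher, against 0.065%, and 0 lower, against 0.0279%. CARS1 followed YARS1 at -0.15. EPRS1 was at -0.099, TARS1 at -0.091, KARS1 at -0.090 and QARS1 at -0.087. These 6 were past 0.05, against 17% of kept genes, and GARS1 was the 1 gene above it, against 13.3%. With the filter at the 75th percentile these shares of genes were 22.2% and 15.7%. In the brightest 25% of genes 43.4% were lower in siYAP than in siTAZ and 27.8% higher, and there 8 of 12 synthetases were lower and 1 higher.

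The enzymes were also grouped by structure. Class I and class II synthetases have unrelated catalytic folds, and EPRS1, which joins a domain of each, was counted with class I. In the siTAZ array 7 of 10 class I genes were higher (median 0.015) and 6 of 7 class II genes (median 0.074), with 0 lower in each class. Among all kept genes 29.7% were higher and 21.7% lower in that array. In the siYAP array 3 of 10 class I genes were higher and 1 lower (median 0), and 4 of 7 class II genes were higher and 1 lower (median 0.036), against 27% higher and 21.7% lower among all kept genes. Of the 7 measured synthetases of the multisynthetase complex, 5 were higher in the siTAZ array (median 0.011), against 8 of the 10 cytosolic enzymes outside it (median 0.052) and 29.7% of all kept genes. These groups are small and their counts turn on exact ties. The scaffold gene AIMP1 was identical in all 3 arrays at 9.51.

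Members were also split by the amino acid response letters, whose part in the differences was not tested. The 7 with a match had a median siTAZ difference of 0.030, from 0 to 0.22, with 6 higher and 1 identical (IARS1). The 8 genes whose windows lack the letters had a median of 0.056, from 0 to 0.24, with 5 higher and 3 identical, and include QARS1 and SARS1. No gene of either group was lower in the siTAZ array, where the kept-gene shares were 29.7% higher, 21.7% lower and 48.5% identical. In the siYAP array the medians were 0 in both groups. Genes with a match had 3 higher, 1 lower and 3 identical there, and those without it 3 higher, 1 lower and 4 identical. The kept-gene shares in the siYAP array were 27% higher, 21.7% lower and 51.3% identical. The 4 genes without a window were LARS1, SEPSECS, VARS1 and YARS1, so YARS1, with the largest siTAZ difference, is in neither group.

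The amino acid response was measured through 17 of 30 listed genes, those with a named probe set that were kept. Their differences ran from -0.034 to 0.28 in siTAZ cells and from -0.14 to 0.27 in siYAP cells. In the siTAZ array 9 of them were higher, 1 lower and 7 identical (median 0.012), and in the siYAP array 7 were higher, 2 lower and 8 identical (median 0). Among all kept genes 29.7% were higher, 21.7% lower and 48.5% identical in the siTAZ array. In the siYAP array these shares were 27%, 21.7% and 51.3%. ATF4 itself was identical in all 3 arrays at 8.43, as was its target ATF3 at 4.42, a dim level. PSPH, the last enzyme of serine synthesis, was at 8.06 in siTAZ and 8.13 in siYAP cells, against 7.86 in siNC cells. ATF5, a related transcription factor, was at 6.83 in both knockdown arrays, against 6.57 in siNC cells. TRIB3, a pseudokinase induced through ATF4, was 0.20 higher in both. EIF2AK4, the kinase GCN2 that senses uncharged transfer RNA, was at 7.31 in siTAZ and 7.03 in siYAP cells, against 7.03 in siNC cells. ASNS, the asparagine synthetase often used as a readout of this response, differed by 0.012 and 0.017.

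Genes that act beside the synthetases were measured in part. TARS3, a paralogue of TARS1, was at 6.52 in siTAZ and 6.32 in siYAP cells, against 6.28 in siNC cells. DTD1 and DTD2, deacylases that remove wrongly attached amino acids from transfer RNA, differed from the control by 0.16 and 0.26 in siTAZ cells, and by 0.14 and 0.022 in siYAP cells. The 4 measured genes of this list of 7 had 3 higher and 1 lower in the siTAZ array, where PTRHD1 was at -0.19, against 29.7% higher and 21.7% lower among all kept genes. The medians of the 4 listed genes were 0.20 and 0.032.

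The mitochondrial side could be seen only through its accessory genes. MTFMT, which formylates the initiator methionine on its transfer RNA in mitochondria, was at 8.61 in siTAZ and 8.55 in siYAP cells, against 8.33 in siNC cells. GATB and QRSL1, subunits of the amidotransferase that makes glutaminyl-tRNA in mitochondria, were identical in all 3 arrays. Among 5 measured mitochondrial translation factors of 9 listed, 3 were higher in both knockdown arrays and 0 lower (median 0.0030 in each). Of all kept genes 29.7% were higher in the siTAZ and 27% in the siYAP array, and 21.7% lower in each. MTRF1L, a release factor, led the listed factors with differences of 0.38 and 0.19. It has 5 probe sets, and only the brightest is given here.

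Elongation, selenocysteine and tRNA processing genes completed the pathway. In this paragraph the kept-gene shares are 29.7% higher and 21.7% lower in the siTAZ array, and 27% and 21.7% in the siYAP array. Of 6 measured elongation genes of 7 listed, 3 were higher and 1 lower in the siTAZ array, and 3 higher and 2 lower in the siYAP array. EEF2, the translocase of the cytosolic ribosome, was at 12.04 in siTAZ and 12.08 in siYAP cells, against 11.93 in siNC cells, while EEF1A2, which delivers charged transfer RNA, was at -0.16 and -0.11. In the selenocysteine list SEPHS2, which makes the selenium donor, differed by 0.22 and 0.13, and SECISBP2, which binds the selenocysteine insertion element, by -0.29 and -0.39. Of 9 measured tRNA processing genes of 20 listed, 5 were higher and 0 lower in the siTAZ array, and 2 higher and 1 lower in the siYAP array. ELAC2, which trims the 3′ end of transfer RNA precursors, differed by 0.081 and 0.14. TRMT6, the 1 lower gene of this list in the siYAP array, differed by 0.019 and -0.14.

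**Figure D4:**
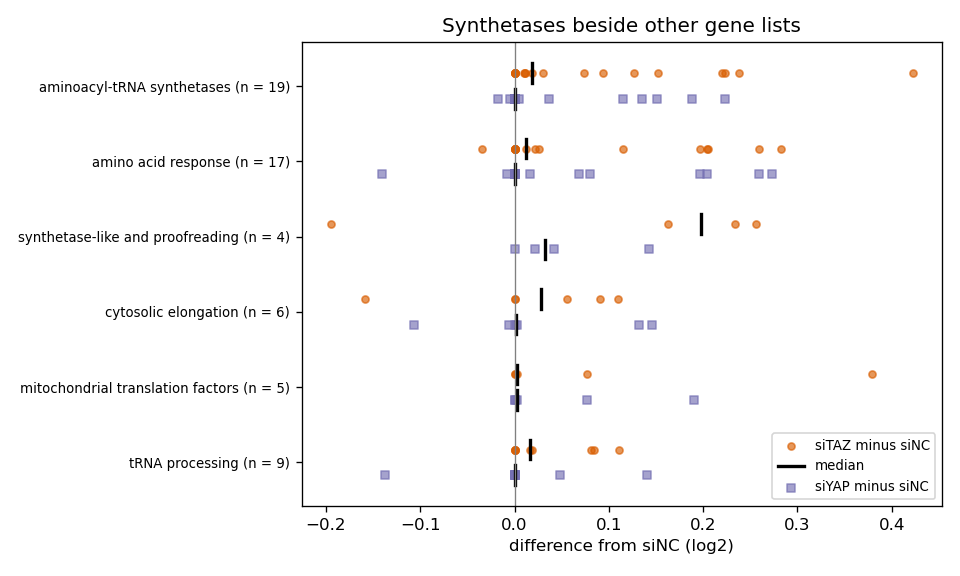
Points are genes and black bars medians of the difference from siNC on the log2 scale, with circles for siTAZ and squares for siYAP, for the 19 synthetases and 5 other lists. The medians of all lists lie between 0 and 0.20, and the highest is that of the 4 synthetase-like and proofreading genes in the siTAZ array.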

How the data were processed

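Each of the 3 arrays (siTAZ, siYAP and siNC) used 500 ng of RNA, per the labels' protocols. The authors deposited RMA values for 53617 probe sets, per the submitters' processing notes. Their scale is unnamed. It was taken as log2, since the deposited values ran from 0.96 to 13.5 with near-equal quartiles. No RMA version or array build is given in the sources used here. RMA's quantile step makes each value relative to its own array.

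The platform annotation gave 16098 probe sets 1 symbol, 0 several, and left 37519 unnamed. All 16098 Entrez identifiers matched RefSeq (GRCh38.p14), and 0 symbols changed. The brightest probe set by mean represented a gene. With 1 array per group there is no test; the number of arrays and the exact ties limit precision. Values within 1e-09 count as identical. Counting was tested on simulated data. Python 3.11.15, pandas 2.3.3 and statsmodels 0.14.6 were used.

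The text names all members and, of each pathway list, up to 4 genes with the largest difference from siNC; AIMP1, GATB, QRSL1, ATF4, ATF3, ASNS and GARS1-DT were added after their values were seen. Members and lists were chosen with earlier results of these data known. The 6 alternatives were to drop the filter, to raise it to the 75th percentile, to average all probe sets, to shift medians to 0, to repeat quantile normalization and to subtract a loess trend (span 0.4).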

Additional observations from a re-analysis of the deposited data

How the results depend on the processing

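No paired analysis was possible because each group had 1 array. Over 6 alternatives, the 20 synthetase differences of at least 0.05 over the 3 comparisons had another sign in 0 cases and moved by at most 0.027 (YARS1, siTAZ minus siNC). The shift to a median of 0 could move nothing, since the medians were 0 already. Smaller differences and medians near 0 were less settled: the synthetase median in siTAZ minus siNC ran from 0.011 to 0.024, that of the complex members from 0.0091 to 0.022, and that of the mitochondrial translation factors in siYAP minus siNC from -0.0067 to 0.0030. The stricter filter left out PSTK and kept 18 synthetases. Counts past 0.05 and at 1.2-fold or 1.5-fold stayed within 1.5 times their reported values.

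Counts by any amount did not all do so, where an alternative breaks exact ties or turns the sign of very small differences. In each comparison the direction with more synthetases as reported stayed within that limit, and the other direction moved past it. After the new quantile normalization 14 synthetases were higher and 5 lower in siTAZ than in siNC (all kept genes 51.5% and 41.7%), 8 higher and 11 lower in siYAP than in siNC (45.3% and 47.8%), and 6 higher and 13 lower in siYAP than in siTAZ (30.3% and 61.7%). After the loess trend was subtracted these counts were 13 and 6 (46.2% and 53.8%), 9 and 10 (45.8% and 54.2%), and 3 and 16 (31.4% and 67.2%). In these loess counts an exact tie takes the sign of the subtracted trend, however small, as HARS1 at -4.7e-09 in siYAP minus siTAZ. Past 0.05 the counts in siTAZ minus siNC were still 8 higher and 0 lower under both alternatives.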
